A study of Oryza sativa with 6 samples.

Results

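Genes for 5 enzymes and enzyme subunits of the tryptophan branch were followed in rice leaves: LOC_Os03g61120, LOC_Os03g15780, LOC_Os03g50880, LOC_Os02g16630 and LOC_Os06g42560. They were taken by their locus IDs, and each matched 1 entry, so that 5 of the 35018 gene entries and 9 of the 57680 transcripts were theirs. Leaves came from plants of the glyphosate-tolerant line CA21, sprayed as young seedlings, at the stage of the third leaf, with glyphosate at 2 mg per ml (GLY, 3 libraries), or given no spray (CK, 3 libraries). CA21 is a single non-transgenic line made by mutagenesis of Zhejing30 followed by crossing and backcrossing with the sensitive line P1003; leaves were taken once all sprayed P1003 plants had died, and no P1003 library was analysed here. CK plants were not mock-sprayed, so the herbicide and the act of spraying cannot be told apart. The labels do not tie the libraries to separate plants or bowls, and the p-values measure the spread between these libraries only.

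Tryptophan is made in the plastid from chorismate, the end product of the shikimate pathway, whose enzyme EPSPS is the target of glyphosate. Anthranilate synthase, built from alpha and beta subunits and inhibited by tryptophan through its alpha subunit, opens the branch. A phosphoribosyltransferase, an isomerase and indole-3-glycerol phosphate synthase then build the indole precursor, and tryptophan synthase joins indole to serine. Tryptophan also feeds auxin, tryptamine and serotonin.

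All 5 genes had higher FPKM (fragments scaled to transcript length and library depth) in every GLY library than in any CK library, with ratios of the group means between 1.72 and 2.60. After adjustment over all 19316 gene entries tested, 4 of the 5 rose: 1 of the 2 alpha subunit genes, the beta subunit gene, the isomerase gene and the beta chain 2 gene of tryptophan synthase. None fell. Leaving out 1 library at a time left 2 or 3 of the 5 past the threshold, and median-of-ratios scaling left 2. Of all tested entries, 19.3% rose and 5.65% fell by the same rule, and 34.3% had higher values in GLY without overlap. None of the 5 reached the threshold used by the study, a log2 fold change of 1 or more in either direction at P under 0.05, which 6.58% of the tested entries passed upwards. The study set it on DESeq fold changes, so the 2 scales differ. With 0.1 in place of 1 added to FPKM, LOC_Os03g50880 (log2 fold change 1.21) and LOC_Os02g16630 (1.37) passed it. Entries passing it in either direction then numbered 3227, beside 1734. All 5 had an unadjusted P under 0.05 with a higher value in GLY, as did 29.7% of the tested entries. Fold changes here are GLY over CK on the log2(FPKM + 1) scale from limma, which understates the change of low genes, and adjusted p is the Benjamini-Hochberg value.

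**Figure D1:**
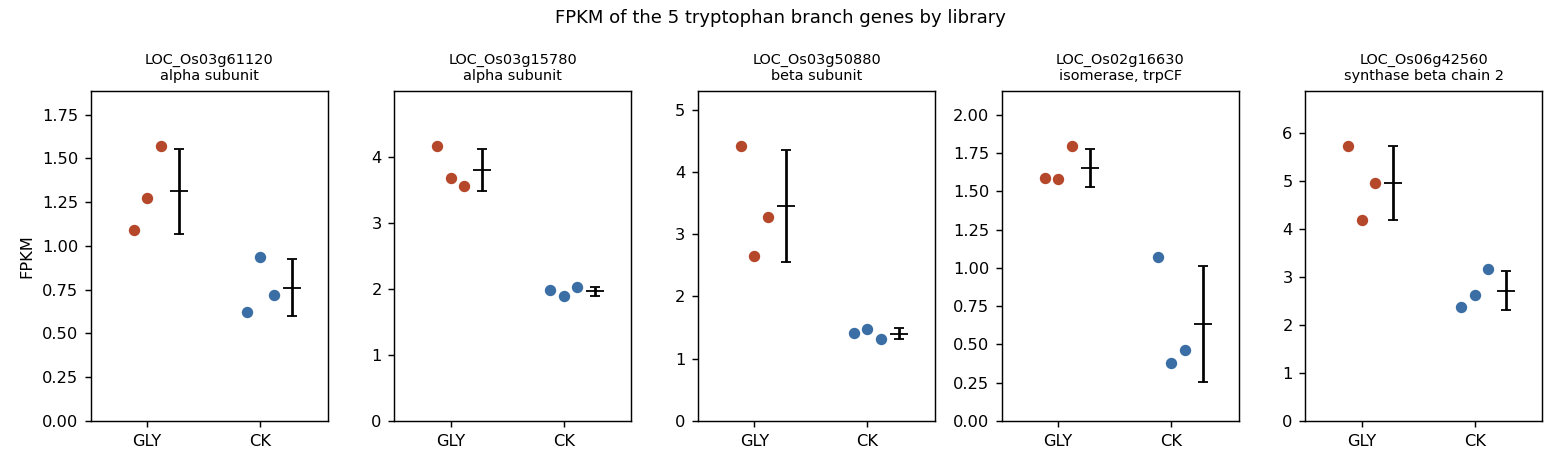
FPKM (vertical axes, each from 0) of the 5 genes in the 3 GLY and the 3 CK libraries, with the mean and SD of each group beside the points. Every GLY point lies above every CK point in each panel, and LOC_Os03g50880 in GLY (SD 0.900) and LOC_Os02g16630 in CK (SD 0.378) each have 1 library well above the other 2.

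The first step is carried out by anthranilate synthase, whose alpha subunit converts chorismate to anthranilate. LOC_Os03g15780, on the minus strand of chromosome 3 at 8702788 to 8707794 (coordinates as deposited; the study's methods name IRGSP build 5.0), is described as anthranilate synthase component I-1. It had 4.17, 3.69 and 3.56 FPKM in GLY, against 1.98, 1.89 and 2.03 FPKM in CK. The CK libraries were nearly equal and all lay well below GLY. The means were 3.80 ± 0.319 FPKM in GLY and 1.97 ± 0.0696 FPKM in CK (SD, n = 3 each), a ratio of 1.94. Its log2 fold change was 0.69 (SE 0.0934, limma adjusted p = 0.00558), and leaving out each library in turn kept it past the threshold in 6 of 6 fits.

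LOC_Os03g61120, the other alpha subunit gene and the one with the same description, lies on the minus strand of chromosome 3 at 34715396 to 34721075 and has 11 exons. It had 1.09, 1.27 and 1.57 FPKM in GLY, against 0.625, 0.938 and 0.722 FPKM in CK. The groups did not overlap, although the lowest GLY library and the highest CK library were close. The means were 1.31 ± 0.242 FPKM in GLY and 0.762 ± 0.160 FPKM in CK (SD, n = 3 each). The log2 fold change of 0.39 (95% interval 0.05 to 0.73) did not pass in limma (unadjusted p = 0.0312, adjusted p = 0.0933). The gene supplied 20.8, 25.7 and 30.6% of the summed alpha subunit FPKM in GLY, against 24.0, 33.2 and 26.3% in CK. The shares overlapped, with a mean difference of -2.13 percentage points (two-sided exact permutation p = 0.6, where 3 against 3 libraries cannot give a p below 0.1).

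The beta subunit of the enzyme releases ammonia from glutamine for the alpha subunit. LOC_Os03g50880, on the minus strand of chromosome 3 at 29067747 to 29071552 with 8 exons, is described as a class I glutamine amidotransferase and annotated with anthranilate synthase activity. It had 4.42, 2.64 and 3.27 FPKM in GLY, against 1.42, 1.48 and 1.31 FPKM in CK. All GLY libraries were above CK, and the first GLY library was the highest. The means were 3.45 ± 0.900 FPKM in GLY and 1.40 ± 0.0859 FPKM in CK (SD, n = 3 each), a ratio of 2.45. Of the 5 genes it had the largest log2 fold change, 0.87 (SE 0.163, limma adjusted p = 0.0151). Without the third CK library the adjusted p was 0.0528.

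The other beta subunit gene, LOC_Os04g38950, had 5.28, 5.44 and 4.43 FPKM in GLY, against 2.46, 4.41 and 3.57 FPKM in CK. Its lowest GLY value lay just above its highest CK value, and its log2 fold change of 0.45 did not pass (limma adjusted p = 0.131). LOC_Os03g50880 supplied 45.6, 32.7 and 42.5% of the summed beta subunit FPKM in GLY, against 36.5, 25.2 and 26.9% in CK. The mean difference was 10.7 percentage points with overlapping groups (exact permutation test, two-sided, p = 0.2). A different response of the beta subunit genes was therefore not shown.

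The isomerase rearranges phosphoribosylanthranilate. LOC_Os02g16630, on the plus strand of chromosome 2 at 9502442 to 9505462, is described as tryptophan biosynthesis protein trpCF and annotated with the enzyme number of the isomerase. It had 1.59, 1.58 and 1.80 FPKM in GLY, against 1.07, 0.376 and 0.461 FPKM in CK. The first CK library stood well above the other two but below every GLY library. The means were 1.66 ± 0.124 FPKM in GLY and 0.636 ± 0.378 FPKM in CK (SD, n = 3 each), a ratio of 2.60 that was the highest of the 5. The log2 fold change was 0.72 (SE 0.185, limma adjusted p = 0.0383). This call rested on the set of libraries: the gene passed without the first CK library (adjusted p = 0.0184) and in none of the other 5 fits that left out a library, where the adjusted p reached 0.109.

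The beta chain of tryptophan synthase joins indole to serine in the last step. LOC_Os06g42560, on the minus strand of chromosome 6 at 25590233 to 25594488, is described as tryptophan synthase beta chain 2. It had 5.72, 4.17 and 4.95 FPKM in GLY, against 2.37, 2.61 and 3.15 FPKM in CK. The groups were separate, with the first GLY library highest, as for LOC_Os03g50880. The means were 4.95 ± 0.775 FPKM in GLY and 2.71 ± 0.398 FPKM in CK (SD, n = 3 each), a ratio of 1.82. The log2 fold change was 0.68 (SE 0.140, limma adjusted p = 0.0204). The gene passed without the third CK or the second GLY library, and missed the threshold in the other 4 fits that left out a library, at adjusted p up to 0.0635.

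Tryptophan synthase beta chain 1, LOC_Os08g04180, was expressed at a far higher level. It had 63.8, 61.7 and 53.5 FPKM in GLY, against 41.9, 41.8 and 40.7 FPKM in CK, and it also rose, by 0.51 (limma adjusted p = 0.0137). LOC_Os06g42560 supplied 8.23, 6.34 and 8.46% of the summed beta chain FPKM in GLY, against 5.36, 5.88 and 7.18% in CK. The groups overlapped, and the difference of 1.54 percentage points had p = 0.2 (exact permutation test, two-sided). The adjusted p over the 3 share comparisons was 0.3 for both beta genes and 0.6 for LOC_Os03g61120.

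The order of the 5 genes by FPKM, which is per length, was similar in both groups. In GLY it ran LOC_Os06g42560, LOC_Os03g15780, LOC_Os03g50880, LOC_Os02g16630 and LOC_Os03g61120; in CK the last pair was reversed. Neighbours whose ranges overlapped were LOC_Os03g15780 and LOC_Os03g50880 in GLY and LOC_Os03g61120 and LOC_Os02g16630 in CK. Between 19.6% (LOC_Os03g61120) and 56.5% (LOC_Os06g42560) of the tested entries had a lower mean FPKM, so the 5 lay in the lower and middle part of the distribution.

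**Figure D2:**
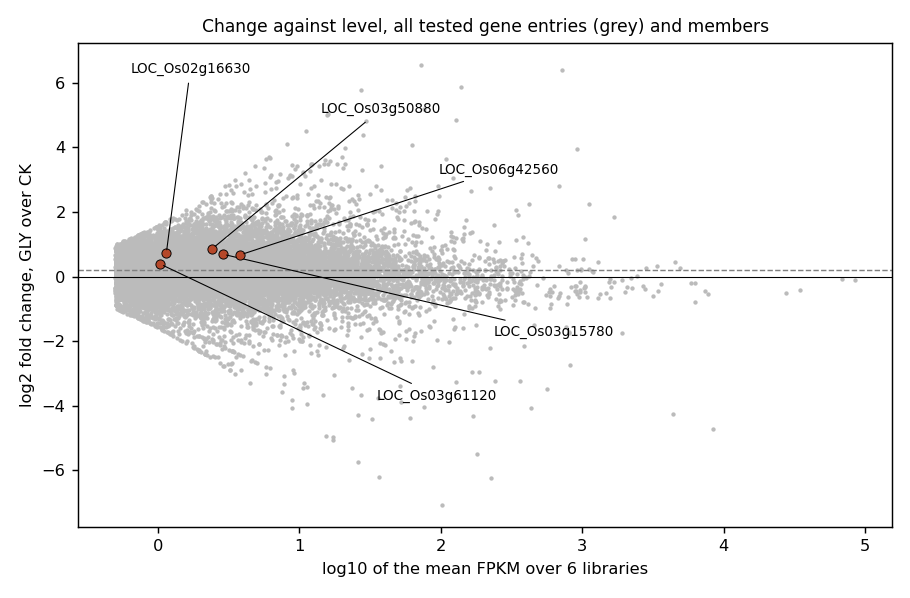
Log2 fold change of GLY over CK on log2(FPKM + 1) (vertical axis) against log10 of the mean FPKM (horizontal axis) for the 19316 tested gene entries in grey, with the 5 members in red and the median of all entries as a dashed line at 0.20. The members lie above the dashed line, at 0.39 to 0.87, inside the cloud of other entries of like level.

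The median log2 fold change of the 5 genes was 0.69, beside 0.20 over all tested entries. Above that median the genes stood by 0.19 for LOC_Os03g61120, 0.50 for LOC_Os03g15780, 0.67 for LOC_Os03g50880, 0.52 for LOC_Os02g16630 and 0.48 for LOC_Os06g42560. Between 67.2% (LOC_Os03g61120) and 89.4% (LOC_Os03g50880) of the tested entries had a lower fold change. The general upward shift depends on scaling. With median-of-ratios scaling the median of all entries was -0.02, and 51.3% of the entries past the study's threshold were higher in GLY, beside 73.3% without it. On that scale LOC_Os03g15780 (0.47, limma adjusted p = 0.0219) and LOC_Os03g50880 (0.66, adjusted p = 0.0403) passed. LOC_Os02g16630 (0.57, adjusted p = 0.0905), LOC_Os06g42560 (0.44, adjusted p = 0.0931) and LOC_Os03g61120 (0.24, adjusted p = 0.276) did not.

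Leaf genes of very high level differed between the groups. The summed FPKM of 17 chlorophyll a/b-binding protein entries was 24426 to 35198 in GLY and 40479 to 45749 in CK, and that of 4 ribulose bisphosphate carboxylase small chain entries was 7438 to 8212 in GLY and 11716 to 12260 in CK. The 4 glutelin entries, markers of seed storage, summed to 2.61 to 3.41 FPKM in GLY and 0.857 to 1.45 FPKM in CK, and the 6 prolamin entries to at most 0.0672 FPKM in any library. The 2 pollen allergen entries reached at most 0.307 FPKM, and were listed at 0 in 4 of the 6 libraries. Bases assigned to transcripts came to 3.84 to 4.40 Gb in the GLY libraries, against 3.43 to 3.80 Gb in the CK libraries. This is not the sequenced depth, for which the study lists fewer reads in every GLY library than in any CK library. The part of these differences in the changes of the 5 genes was not tested. In whole leaves, a different number of cells of one type and a different amount of RNA per cell cannot be told apart.

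The 5 genes gave 9 transcripts, of which 6 were abundant enough to be tested (mean of at least 0.5 FPKM). None of the 6 passed after adjustment over 32646 transcripts, a rule that 4.4% of the tested transcripts passed upwards and 6.19% in either direction; 4 of the 6 had an unadjusted limma P under 0.05 with a higher value in GLY, as did 16.5% of the tested transcripts. LOC_Os03g61120.1 and LOC_Os03g50880.1 are the sole transcripts of their genes and hold the same FPKM as the gene entries. For LOC_Os03g50880.1 the log2 fold change was again 0.87, with an adjusted p of 0.0629 over transcripts. The call thus differed with the table over which it was made.

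LOC_Os03g15780.1 had 4.24, 3.49 and 3.34 FPKM in GLY, against 1.98, 1.68 and 2.11 FPKM in CK (log2 fold change 0.68, limma adjusted p = 0.0745). A second, assembled transcript of the locus that is not in the reference annotation reached at most 0.433 FPKM, in GLY, and overlapped between the groups. LOC_Os02g16630.1 had 0.991, 1.77 and 1.81 FPKM in GLY, against 0.744, 0.421 and 0.322 FPKM in CK (log2 fold change 0.75, limma adjusted p = 0.126). Here the groups were separate, while LOC_Os02g16630.2 was listed at 0 in the second library of each group and overlapped.

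The 3 transcripts of LOC_Os06g42560 share their start and end, have 5 exons each and measure 2030, 2027 and 2024 bases, so that the split of reads between them is uncertain. LOC_Os06g42560.1 had 4.41, 2.61 and 3.29 FPKM in GLY, against 1.71, 1.61 and 2.97 FPKM in CK, and the third CK library lay within the GLY range. LOC_Os06g42560.2 had 1.33, 1.58 and 0.834 FPKM in GLY, against 0.672, 0.386 and 0 FPKM in CK. LOC_Os06g42560.3 was listed at 0 in 2 GLY libraries and 1 CK library. No transcript of another gene, on either strand, overlapped any of the 5 loci.

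The deposited files give read coverage per transcript but no counts, so no counting interval can be set. Mean coverage of LOC_Os03g15780.1 was 12.8 to 18.7 in GLY and 6.39 to 7.83 in CK, and that of LOC_Os03g50880.1 was 11.2 to 19.5 in GLY and 4.85 to 5.64 in CK. Coverage was lower for LOC_Os02g16630.1, at 4.36 to 7.51 in GLY and 1.19 to 2.55 in CK, and for LOC_Os06g42560.2, at 3.20 to 6.69 in GLY and 0 to 2.30 in CK. LOC_Os03g61120.1 had 4.81 to 6.03 in GLY and 2.14 to 3.57 in CK.

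Beside the 5 genes, 11 further entries were annotated to tryptophan synthesis, and all 11 were tested. One rose, the beta chain 1 gene LOC_Os08g04180, none fell, and the median log2 fold change was -0.05. Over all tested entries, 19.3% rose and 5.65% fell by the same rule. With median-of-ratios scaling the rise of LOC_Os08g04180 was lost (0.22, limma adjusted p = 0.157). On that scale 2 of the 11 passed as lower, LOC_Os03g03450 (-0.41, adjusted p = 0.0412) and LOC_Os07g08430 (-0.58, adjusted p = 0.0106). Of all 19191 entries tested with that scaling, 3875 passed in either direction, and how many of them fell was not counted. The phosphoribosyltransferase gene LOC_Os03g03450, which acts between anthranilate synthase and the isomerase, had 18.5, 16.2 and 18.9 FPKM in GLY, against 19.6, 18.6 and 20.6 FPKM in CK (log2 fold change -0.13, adjusted p = 0.374). The groups overlapped, and both were far above the level of the isomerase gene. The main indole-3-glycerol phosphate synthase gene, LOC_Os04g39270, stood at -0.0076 (adjusted p = 0.973), with LOC_Os08g23150 at 0.33 (adjusted p = 0.197). The 5 indole-3-glycerol phosphate lyase entries, the family of the alpha chain of tryptophan synthase, lay between -0.54 (LOC_Os03g58290) and -0.05 (LOC_Os03g58300), and none passed. LOC_Os07g08430 was the one with separate groups, at 4.73, 5.66 and 5.02 FPKM in GLY, against 6.89, 6.33 and 6.79 FPKM in CK (log2 fold change -0.32, adjusted p = 0.0592). A further 9 entries called anthranilate phosphoribosyltransferase lack its enzyme number and were counted apart. Of these, 1 of the 4 tested rose, beside 19.3% of all tested entries.

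**Figure D3:**
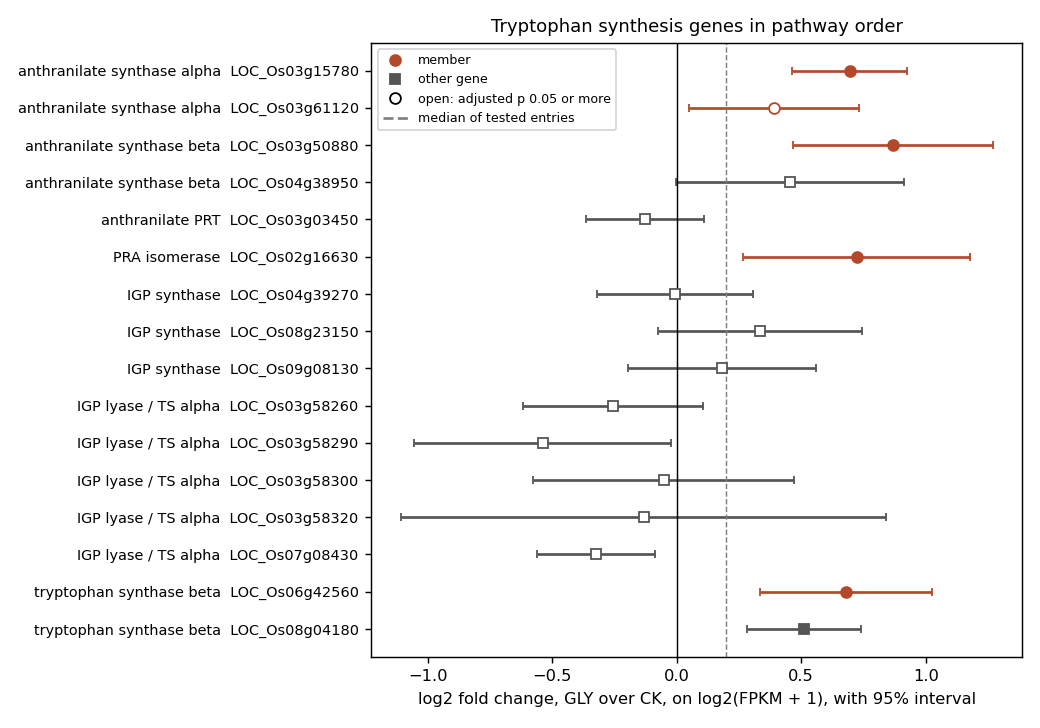
Log2 fold change of GLY over CK on log2(FPKM + 1), with its 95% interval (horizontal axis), of the 5 members (red circles) and 11 other tryptophan synthesis genes (grey squares) in pathway order, filled where the adjusted p was under 0.05 (PRT, phosphoribosyltransferase; PRA, phosphoribosylanthranilate; IGP, indole-3-glycerol phosphate; TS, tryptophan synthase). Filled symbols are those of 4 members and of LOC_Os08g04180, at the anthranilate synthase, isomerase and tryptophan synthase reactions.

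Summed over the genes of each step, FPKM was higher in GLY at 4 of the 7 steps without overlap. Every gene of these 4 steps was already higher in GLY without overlap on its own, as were 34.3% of all tested entries. Their sums therefore had to be separate, and the sums and their p-values restate the gene values without adding support. Anthranilate synthase alpha summed to 5.12 ± 0.151 FPKM in GLY and 2.73 ± 0.112 FPKM in CK (SD, n = 3 each), and anthranilate synthase beta to 8.50 ± 1.06 FPKM in GLY and 4.88 ± 1.01 FPKM in CK. Tryptophan synthase beta summed to 64.6 ± 5.61 FPKM in GLY and 44.2 ± 0.293 FPKM in CK, and the isomerase step was the single gene given above. Each of these 4 had p = 0.1, the smallest the exact two-sided permutation test over 3 against 3 libraries allows. The phosphoribosyltransferase step had a GLY to CK ratio of 0.911 (exact p = 0.2), indole-3-glycerol phosphate synthase 1.04 (exact p = 0.7) and the lyase and alpha chain family 0.775 (exact p = 0.4), with overlapping groups. The isomerase step had the lowest summed FPKM of the 7 in both groups.

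**Figure D4:**
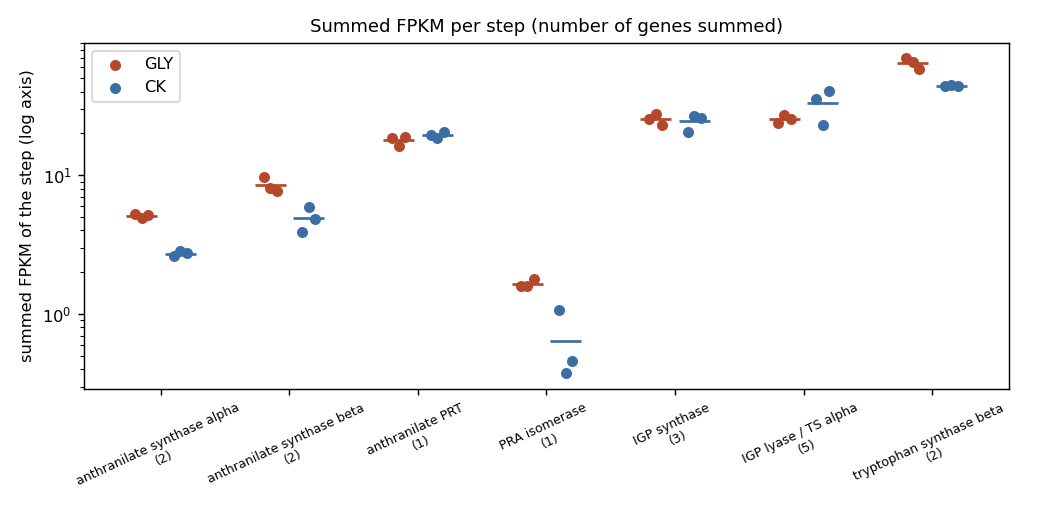
Summed FPKM (log axis) of the genes of each step in the GLY (red, left) and CK (blue, right) libraries, with horizontal lines at the group means and the number of genes in brackets. The alpha, beta, isomerase and tryptophan synthase beta steps have separate groups, and the isomerase step is lowest, at 1.66 FPKM in GLY and 0.636 FPKM in CK.

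For chorismate, from which the branch starts, 8 entries of its formation or of its use in other routes were listed and 6 tested. Of these, 1 rose and none fell, with a median log2 fold change of 0.10. By the same rule 19.3% of all tested entries rose and 5.65% fell. The riser was the EPSPS gene LOC_Os06g04280, the target of glyphosate, with 11.0, 11.6 and 10.1 FPKM in GLY, against 4.78, 4.48 and 2.87 FPKM in CK (log2 fold change 1.26, limma adjusted p = 0.00612). The groups lay far apart. The study described a rising trend for the transcript LOC_Os06g04280.1, but did not call it at its threshold. The gene entry passed that threshold here, on the limma scale rather than on DESeq fold changes. With median-of-ratios scaling its log2 fold change was 0.999, just short of the threshold. The reason for the different calls was not tested. The 4-amino-4-deoxychorismate synthase gene LOC_Os06g48620, of the folate route, had 12.1, 14.8 and 12.7 FPKM in GLY, against 16.9, 16.5 and 16.2 FPKM in CK. Its groups were separate, and its log2 fold change of -0.31 did not pass (adjusted p = 0.0724), but did with median-of-ratios scaling (-0.59, adjusted p = 0.00959). The isochorismate synthase gene LOC_Os09g19734 also had separate groups, at 5.58, 5.80 and 3.80 FPKM in GLY, against 5.98, 7.63 and 6.18 FPKM in CK (log2 fold change -0.34, adjusted p = 0.209). Chorismate mutase LOC_Os01g55870, which opens the competing branch to phenylalanine and tyrosine, stood at 0.06 (adjusted p = 0.815). Chorismate synthase was merged with a neighbouring zinc finger gene in 1 entry, named LOC_Os03g15000. Its annotated transcript LOC_Os03g14990.1 had 1.36, 0.183 and 0.130 FPKM in GLY, against 0.481, 0.590 and 0.194 FPKM in CK, with overlapping groups. An assembled transcript that spans both genes held 18.9, 20.2 and 21.1 FPKM in GLY, against 6.90, 15.3 and 22.4 FPKM in CK, so the split of reads between them is uncertain.

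A list drawn up for the use of tryptophan held 12 entries, 9 of them described only as flavin monooxygenase. No entry matched tryptophan aminotransferase or tryptophanyl-tRNA synthetase by name. Entries named flavin-containing monooxygenase family protein were left out, so the list does not cover tryptophan use in full. Of the 12, 6 were tested, of which 1 rose and 2 fell, with a median log2 fold change of -0.11. Over all tested entries, 19.3% rose and 5.65% fell by the same rule. LOC_Os12g16720, described as cytochrome P450 71A1 and listed by its ID for the serotonin route, had 3.63, 3.75 and 2.83 FPKM in GLY, against 1.31, 0.403 and 1.54 FPKM in CK (log2 fold change 1.12, limma adjusted p = 0.0257). The groups were separate, but the gene missed the threshold without the first CK library (adjusted p = 0.0541), the first GLY library (adjusted p = 0.0761) or the second GLY library (adjusted p = 0.0797). The flavin monooxygenase gene LOC_Os07g25540 had 1.14, 0.696 and 1.40 FPKM in GLY, against 7.70, 6.17 and 9.29 FPKM in CK (log2 fold change -2.07, adjusted p = 0.00206). LOC_Os01g12490, of the same description, had 1.09, 1.83 and 1.39 FPKM in GLY, against 3.44, 3.28 and 3.69 FPKM in CK (log2 fold change -0.89, adjusted p = 0.00847). Flavin monooxygenases include the enzymes that make auxin from a tryptophan product, but the annotation does not say whether these entries belong to that group, and neither gene that fell is shown to act on tryptophan products. The decarboxylase gene LOC_Os08g04560 was listed at 9.65, 0 and 0 FPKM in GLY, against 3.15, 2.72 and 0 FPKM in CK, a spread within each group that allows no comparison.

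Profiles most like those of the 5 genes were sought among 14026 annotated entries with a mean of at least 1 FPKM. The measure was the Euclidean distance of centred log2(FPKM + 1) over the 6 libraries. A nearest entry always exists among so many candidates, and the distances were not set against a background. Shared regulation was not tested. The nearest to LOC_Os03g15780 was LOC_Os01g06550, an NF-X1-type zinc finger gene, at 0.0477, followed by the copine-1 gene LOC_Os06g40650 at 0.0701. LOC_Os03g61120 lay nearest to LOC_Os08g05880, a Brix domain gene, at 0.0661, and to LOC_Os04g30880, a TBC domain gene, at 0.0851. For LOC_Os03g50880, whose GLY libraries varied most, the nearest were farther off, LOC_Os01g46140 at 0.145 and the kinesin gene LOC_Os02g43130 at 0.173. LOC_Os02g16630 lay nearest to the GHMP kinase gene LOC_Os02g01920 at 0.0949 and to LOC_Os06g05520, described as OsMKK1, at 0.142. LOC_Os06g42560 lay nearest to the AP2 domain gene LOC_Os04g55560 at 0.0978 and to the cytochrome P450 gene LOC_Os05g11130 at 0.103. Among the 5 genes themselves, LOC_Os03g15780 was the nearest other member to LOC_Os03g61120, LOC_Os02g16630 and LOC_Os06g42560.

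**Figure D5:**
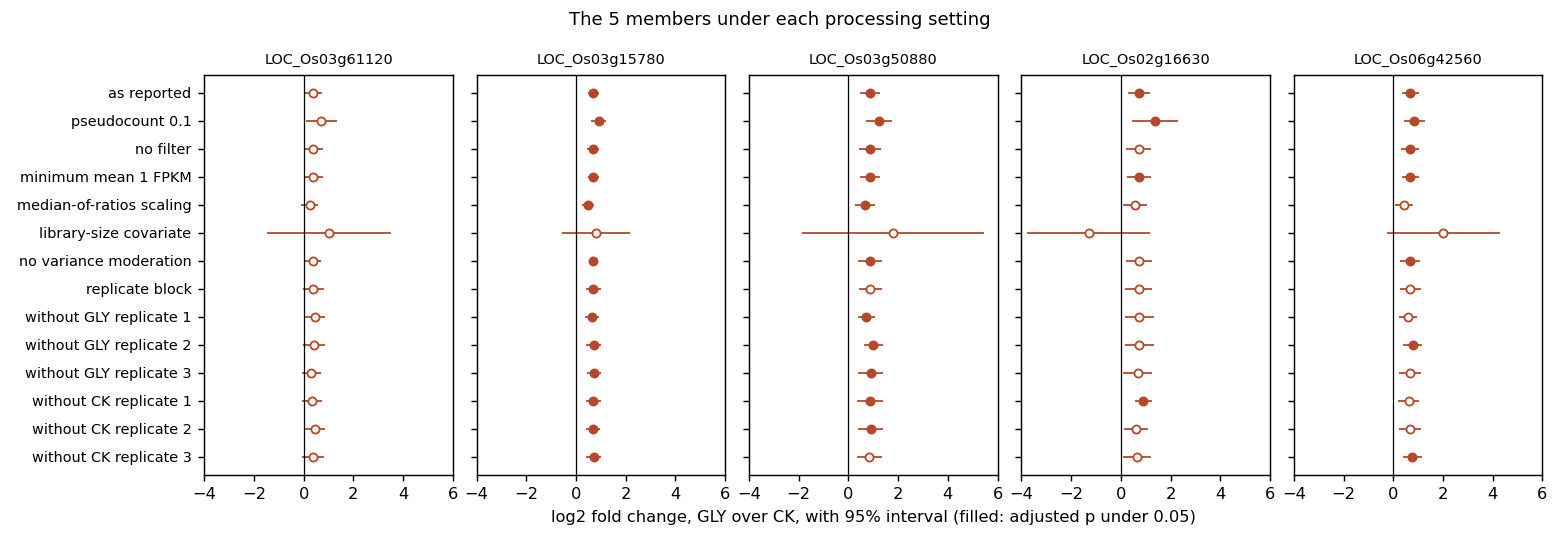
Log2 fold change of GLY over CK with its 95% interval (horizontal axes) for each of the 5 members under each processing setting (rows), filled where the adjusted p was under 0.05. LOC_Os03g15780 is filled in all settings but the library-size covariate, LOC_Os03g61120 in none, and LOC_Os02g16630 lies below 0 with the library-size covariate alone.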

How the data were processed

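Total RNA of 6 leaf libraries was depleted of ribosomal RNA and sequenced as paired ends. The authors aligned reads to Nipponbare rice (IRGSP build 5.0) by Bowtie 2 and TopHat2, assembled transcripts with StringTie and estimated levels with Ballgown; versions and strandedness are not given in the sources used here. The deposited values are FPKM per gene entry and per transcript, and the deposited coverage per transcript is the mean read depth. Descriptions were taken from the annotated transcripts of an entry or, where these gave none, from the gene table.

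FPKM are not counts, so no count model was used. Entries averaging 0.5 FPKM or more entered the fit on log2(FPKM + 1) with limma 3.58.1 (R 4.3.3; trend, two-sided), unpaired, with Benjamini-Hochberg adjustment over all tested entries; an entry passed at an adjusted p under 0.05. Shares and sums used exact permutation tests (scipy 1.17.1). Depth in Gb is the median ratio of coverage to FPKM. The fit was tested on simulated data, where an initial target for its power was missed and replaced by checks of the estimates.

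The text names the 5 members, tested entries of 3 lists (including those with the largest changes among the called) and the 2 nearest profiles of each member. The members and lists were chosen with earlier results of these data known. The separation of 9 phosphoribosyltransferase entries by enzyme number, the step sums and the shares of LOC_Os03g50880 and LOC_Os06g42560 were added after seeing the data. Alternatives changed the pseudocount, filter, scaling, covariate, variance moderation, replicate block and libraries. Sequences were not used here.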

Additional observations from a re-analysis of the deposited data

How the results depend on the processing

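Log2 fold changes are GLY over CK. LOC_Os03g61120 did not pass in any of the 13 alternatives. The library-size covariate was computed from the FPKM values and is not the sequenced depth. Every alternative kept the direction of the 5 genes, except for LOC_Os02g16630 with the library-size covariate (-1.30), which correlated at 0.988 with the treatment and under which no member passed (LOC_Os03g15780 0.81, LOC_Os03g50880 1.80, LOC_Os06g42560 2.01; 0 of all entries at adjusted p under 0.05 and 1137 past the study's threshold; that fit was an ordinary linear model). LOC_Os02g16630 missed the threshold at 0.72 without the filter (adjusted p = 0.0851), without variance moderation (0.0715) and with the replicate block, and at 0.57 with median-of-ratios scaling, as LOC_Os06g42560 did at 0.44. Leaving out each library gave 0.61 to 0.90 for LOC_Os02g16630, 0.59 to 0.77 for LOC_Os06g42560, 0.72 to 1.002 for LOC_Os03g50880 and 0.64 to 0.73 for LOC_Os03g15780. Members passing numbered 4 as reported, 2 with median-of-ratios scaling, 2 to 3 without a library and 1 with the replicate block, where LOC_Os03g50880 (0.87, adjusted p = 0.0519) and LOC_Os06g42560 (0.68, adjusted p = 0.0669) missed it and 2462 of all entries passed, beside 4816. The replicate numbers gave no sign of a pairing, which does not show that there was none. Same-number deviations correlated at 0.0035, 0.0099 and 0.0060, and those of different numbers between -0.026 and 0.020. Past the study's threshold were 0 members as reported, 2 with pseudocount 0.1 (3227 entries, beside 1734) and 0 to 1 without a library; all entries passing numbered 3058 to 3686 without a library. Transcript LOC_Os03g15780.1 passed without variance moderation (0.68, adjusted p = 0.0487), and LOC_Os02g16630.1 (-1.02) and LOC_Os06g42560.2 (-1.21) turned with the covariate. Other synthesis genes that rose numbered 0 with median-of-ratios scaling, the covariate or the replicate block, and those that fell 2 with median-of-ratios scaling (LOC_Os03g03450 and LOC_Os07g08430) and 0 to 2 without a library. Entries of the list for tryptophan use, mostly flavin monooxygenases of unstated role, that rose numbered 0 with no filter, median-of-ratios scaling, the covariate, no variance moderation or the replicate block, and 0 to 1 without a library; 0 fell with the covariate. Chorismate genes that rose numbered 0 with the covariate, and 1 (LOC_Os06g48620) fell with median-of-ratios scaling. The share of LOC_Os03g61120 moved between -4.60 and 0.555 percentage points without a library. Signs also turned with the covariate for LOC_Os03g03450 (0.21), LOC_Os03g58260 (0.47), LOC_Os04g39270 (0.88), LOC_Os08g04560 (1.10), LOC_Os12g16720 (-0.47), LOC_Os06g04280 (-0.013) and LOC_Os09g19734 (0.062), with median-of-ratios scaling for LOC_Os03g15000 (-0.14) and LOC_Os01g55870 (-0.22), and without a library for LOC_Os03g58300 (-0.26 to 0.15), LOC_Os03g58320 (-0.60 to 0.16), LOC_Os04g39270 (-0.11 to 0.057), LOC_Os08g04560 (-1.32 to 0.39), LOC_Os12g32750 (-0.23 to 0.075) and LOC_Os01g55870 (-0.043 to 0.24). The cause of these shifts was not tested.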
